A study of Mus musculus with 144 samples.

Results

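Glucocorticoid-induced genes were described in single microglia of the mouse retina, untreated or after crush of the optic nerve. The list held 9 genes: Tsc22d3, Fkbp5, Klf9, Sgk1, Per1, Ddit4, Dusp1, Nr3c1 and Txnip, of 55254 gene symbols in the table. Nr3c1 is the gene of the glucocorticoid receptor and is not read here as an induced target. Counts and medians of the list include it. The list was chosen because Tsc22d3 had shown a low level at day 4 in these same cells. The day 4 values of Tsc22d3 are therefore a description with no test, and the question was whether the other genes shared them. Of the 9 genes, 7 were measured, meaning that 10% or more of the cells had an FPKM of 1 or above. Klf9 and Ddit4 were not. Of all symbols, 8679 were measured.

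Glucocorticoids are steroid hormones of the adrenal cortex that bind the glucocorticoid receptor, the product of Nr3c1. The receptor is held by heat shock protein chaperones, moves to the nucleus with its hormone, and binds DNA elements near genes such as Tsc22d3, Fkbp5 and Per1 to raise their transcription. In microglia, the resident macrophages of the retina and brain, the receptor is known for restraining inflammatory cytokine genes. Several of its targets also answer other signals: Dusp1 to stress kinases, Per1 to the circadian clock and Txnip to glucose.

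The cells were sorted one by one from retinas of Iba1-EGFP mice, a reporter strain in which a microglia and macrophage gene drives green fluorescence. All mice were 16 weeks old, and the cells were labelled microglia. The untreated group had 54 cells, the group of day 2 after nerve crush had 54, and that of day 4 had 36. Each of the 3 plates held 18, 18 and 12 of them, in separate rows of the plate, so plate position and time cannot be told apart. With no animal named in the labels, every time point counts as a single sample, so there is no replicate check and no test was made. The reporter is on in any Iba1-positive cell, so border macrophages can enter the sort with microglia. Because RNA was measured per cell as a share of its reads, less transcript of 1 gene and more of all others cannot be told apart.

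Differences are given between means over cells of log2(FPKM + 1), each with its values in plates 1, 2 and 3. This scale understates the change of low genes. A gene passed the size rule when its pooled difference was at least 1 in size with 1 sign in all 3 plates. At day 4 against untreated cells, 18.9% of measured genes passed it upward and 0.346% downward, which are 1636 and 30 genes. The upward lean went with the number of genes detected per cell, whose median was 3957.5 at day 4, 3469 at day 2 and 2792 in untreated cells. Over all measured genes the median difference from untreated cells was 0.45 at day 4, and it was 0.15 after scaling each cell by its median ratio to the others, which left 678 genes higher and 140 lower. Depth had a median of 5.80 M reads at day 4, 5.32 M at day 2 and 4.93 M in untreated cells (M, 1e+06). Microglia markers were present throughout, with at least 3 of 10 at 20 FPKM in 36, 54 and 54 of those cells. Their levels were not constant: the 10 markers had a median difference of -0.49 at day 4 from untreated cells, with -0.08, -0.26 and -1.06 in the plates, 7 of 10 were below 0 and 0 passed the size rule.

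Tsc22d3 was lower at day 4, and of the other measured genes only Txnip joined it under the size rule. Per1 was lower in every plate by a smaller amount, and Nr3c1 was lower in plates 1 and 2 but not in plate 3. Sgk1 and Fkbp5 had plates on both sides of 0, and Dusp1 was higher in every plate. Of all measured genes, 3.95% were lower and 43.4% higher in all 3 plates. The 7 differences had a median of -0.59, against 0.45 over all measured genes and -0.49 over the 10 microglia markers. The part of these markers in the result was not tested. The median of -0.59 includes Nr3c1 and Tsc22d3, on whose day 4 level the list was chosen, so nothing is read from it. Of the remaining genes, Txnip and Per1 had pooled differences below 0, and Sgk1, Fkbp5 and Dusp1 above 0. Of the 7, 2 passed the size rule downward and 0 upward. The list was selected on this contrast, so nothing is read from that count beside the 0.346% and 18.9% of all genes. Both calls ended when 34 cells with markers of other cell types were left out. The markers Glul and Cd163 are also known as glucocorticoid-induced genes, so those cells were not chosen independently of receptor targets.

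**Figure D1:**
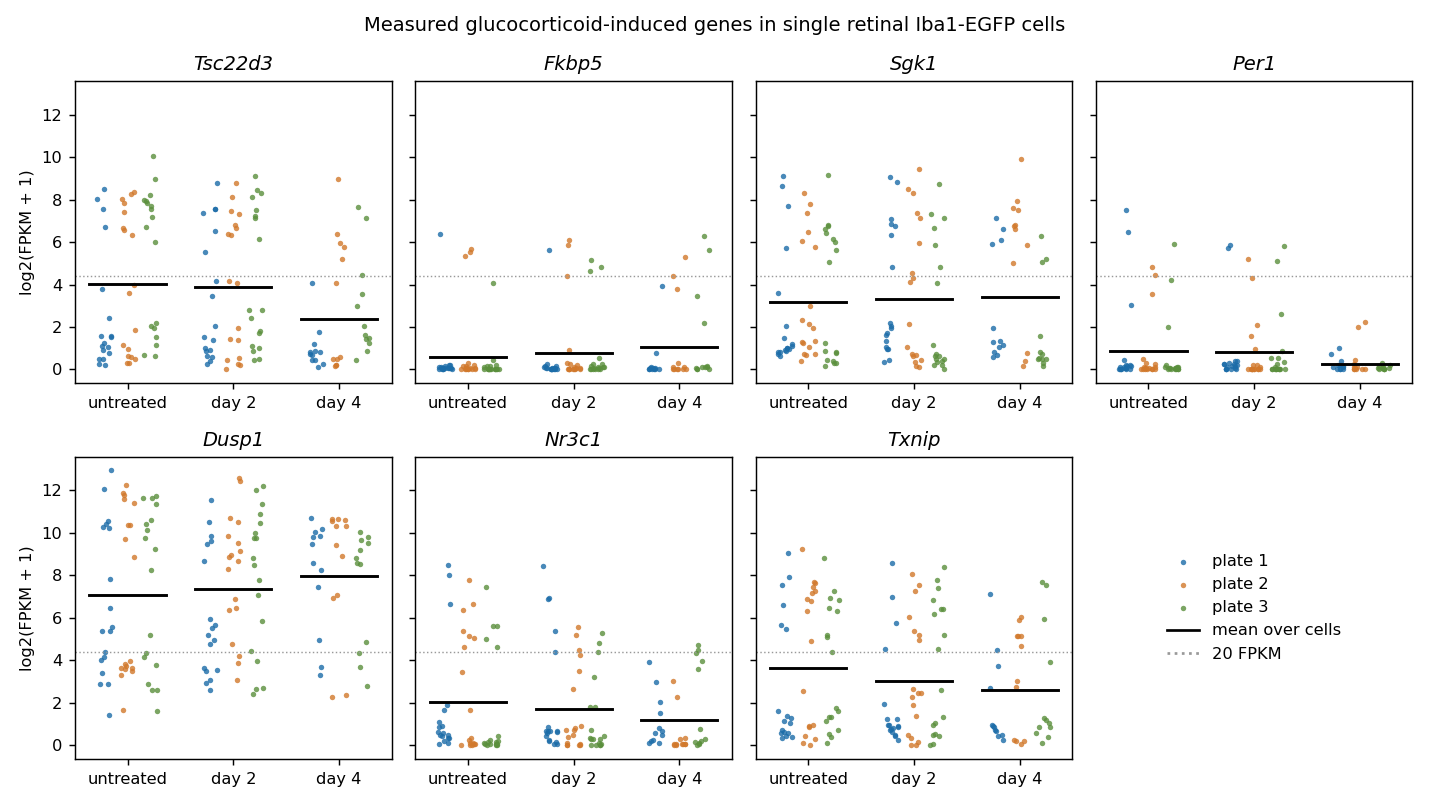
Level of the 7 measured genes in each cell, as log2(FPKM + 1), at the 3 time points in order. Points are cells coloured by plate, black lines are means over cells and the dotted line is 20 FPKM. At day 4 Tsc22d3 lies at or above the dotted line in 8 of 36 cells.

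Tsc22d3 encodes GILZ, a leucine zipper protein that carries part of the anti-inflammatory action of glucocorticoids. The gene (ENSMUSG00000031431) lies on the minus strand at chrX:140539528-140600659 of GRCm38. Its windows around annotated start sites are among 16 windows of 8 of the genes taken from RefSeq (GRCm38.p6), each with 250 bases before the start and 50 after it. The window of the start nearest the 5′ end of the gene is shown because the results turn on this gene. Capitals mark every match to the motifs searched on both strands, here 1 glucocorticoid receptor half-site that begins 185 bases before the start. The other windows of Tsc22d3 held no match to any of these motifs, and the start used in these cells is not known.
Tsc22d3, chrX:140600473-140600772, minus strand: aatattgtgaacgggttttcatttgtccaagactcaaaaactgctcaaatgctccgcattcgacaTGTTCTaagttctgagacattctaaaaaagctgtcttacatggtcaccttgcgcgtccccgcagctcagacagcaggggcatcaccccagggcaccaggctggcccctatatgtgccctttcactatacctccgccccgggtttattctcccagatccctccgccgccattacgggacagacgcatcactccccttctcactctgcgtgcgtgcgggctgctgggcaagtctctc
The half-site searched was AGAACA, found in 18.97% of all 32851 windows, so such a match is common. The full glucocorticoid response element, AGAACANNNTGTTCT, was in 3 of those windows (0.00913%) and in none of the 3 windows of Tsc22d3. No match says only that these letters are not in these windows.

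Tsc22d3 varied widely between single cells. FPKM ranged from 0.167 with a median of 3.96 to 1076 in untreated cells, from 0 with a median of 6.02 to 554 at day 2, and from 0.0884 with a median of 1.32 to 509 at day 4. The 3 ranges overlapped almost wholly, and what differed was how many cells were high and how high they were. At 20 FPKM or more, which corresponds to 461 reads at the median depth, stood 23 of 54 untreated, 22 of 54 day 2 and 8 of 36 day 4 cells. These are 42.6% (exact 95% interval 29.2% to 56.8%), 40.7% (27.6% to 54.97%) and 22.2% (10.1% to 39.2%), with counting error only. The intervals overlap. Among the high cells the median FPKM was 230, 170 and 70.9 at these times. Few cells lay near the threshold, with 3, 4 and 5 cells between 10 and 40 FPKM.

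The plates differed in how many high cells they held. Plate 1 had 4 of 18 untreated, 6 of 18 day 2 and 0 of 12 day 4 cells at 20 FPKM. Plate 2 had 8, 8 and 5, and plate 3 had 11, 8 and 3. The day 4 share was thus well below the others in plates 1 and 3, while in plate 2 it was 5 of 12 against 8 of 18.

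The mean log2 level of Tsc22d3 was 2.38 ± 2.51 at day 4 and 4.04 ± 3.31 in untreated cells (SD over 36 and 54 cells). The difference was -1.66, with -1.67, -0.87 and -2.44 in the plates, and 7 of the 8679 measured genes had a lower one. Mean FPKM was 32.6 at day 4 and 109 in untreated cells. Against day 2, whose mean log2 level was 3.90 ± 3.15 (SD over 54 cells), the day 4 difference was -1.52, with -2.36, -0.81 and -1.39 in the plates. At day 2 itself the difference from untreated cells was -0.14, with 0.69, -0.05 and -1.05, so the plates did not share a sign. The low level thus belonged to day 4 and not to day 2 in plates 1 and 2, whereas in plate 3 day 2 was already below untreated cells.

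Some cells bore markers of other cell types. At least 3 markers of a type other than microglia reached 20 FPKM in 7 of 36 day 4, 11 of 54 day 2 and 16 of 54 untreated cells. At least 3 of 8 border macrophage markers did so in 2, 8 and 6 cells, with a highest summed level of 3704 FPKM at day 4, 6174 at day 2 and 6444 in untreated cells, and summed medians of 2.80, 4.35 and 5.06 FPKM. Tsc22d3 was at 20 FPKM in 0 of 2, 5 of 8 and 4 of 6 of these cells. Mrc1, a mannose receptor that marks border macrophages, reached 20 FPKM in 1, 8 and 6 cells, and Lyve1 in 0, 2 and 2.
At least 3 of 7 Müller glia markers reached 20 FPKM in 4, 2 and 8 cells, and Tsc22d3 was high in 0, 1 and 4 of them. The summed Müller markers ranged from 19.3 to 28186 FPKM at day 4, from 23.5 to 53940 at day 2 and from 17.8 to 55087 in untreated cells. Aqp4 and Dkk3 were listed at 0 in every cell, while Apoe, which macrophages also express, was high in 29, 48 and 47 cells. At least 3 of 10 rod markers reached that level in 1, 0 and 3 cells.
Without all 34 such cells the day 4 difference of Tsc22d3 from untreated cells was -1.04, with -1.24, 0.01 and -1.55 in the plates, so it no longer had 1 sign. Without the border macrophage cells alone it was -1.39, with -1.49, -0.22 and -2.15. Against day 2, without the 34 cells, it was -1.156, with -1.88, -1.35 and 0.01. Glul, on the Müller list, and Cd163, on the border macrophage list, also count among other genes induced by glucocorticoids. Leaving these cells out thus selects partly on receptor targets. The part of these cells in the result beyond these values was not tested.

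**Figure D2:**
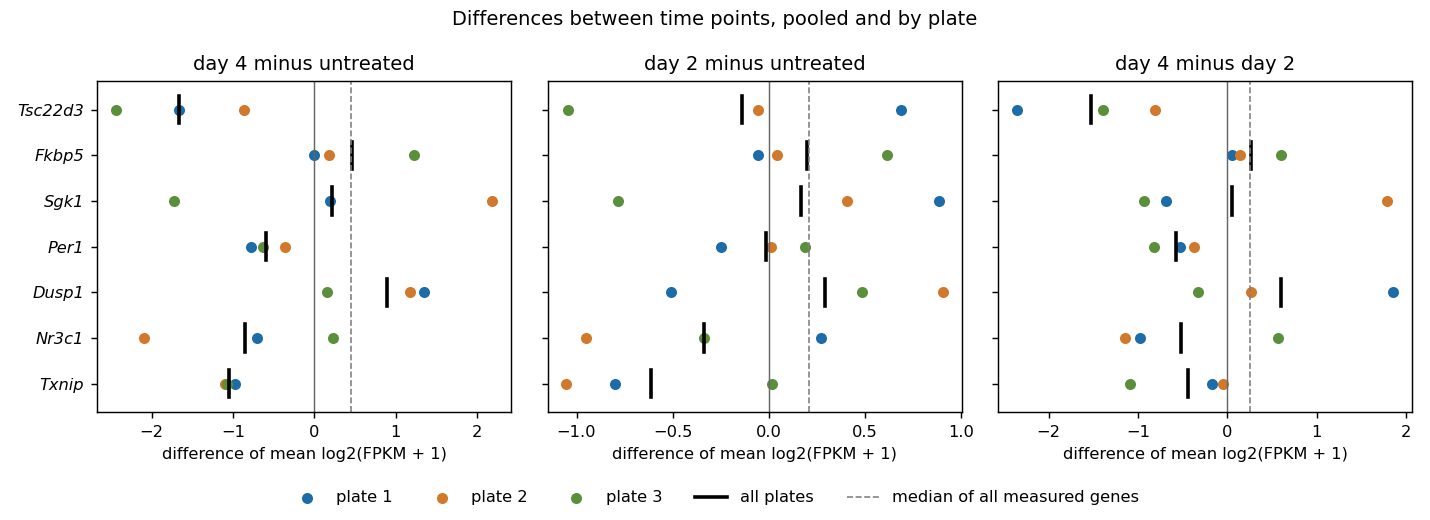
Difference of mean log2(FPKM + 1) for each measured gene, by plate (points) and over all plates (black bars), for day 4 minus untreated, day 2 minus untreated and day 4 minus day 2. The dashed line is the median of all measured genes, 0.45, 0.21 and 0.25. Tsc22d3 lies left of 0 in all plates in both day 4 panels, and Txnip in the first.

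Txnip, which binds and inhibits thioredoxin and lowers glucose uptake, was the other gene to pass the size rule at day 4. It (ENSMUSG00000038393) lies on the plus strand at chr3:96557957-96561883. Its promoter is shown because it had the most negative day 4 difference after Tsc22d3.
Txnip, chr3:96557707-96558006, plus strand: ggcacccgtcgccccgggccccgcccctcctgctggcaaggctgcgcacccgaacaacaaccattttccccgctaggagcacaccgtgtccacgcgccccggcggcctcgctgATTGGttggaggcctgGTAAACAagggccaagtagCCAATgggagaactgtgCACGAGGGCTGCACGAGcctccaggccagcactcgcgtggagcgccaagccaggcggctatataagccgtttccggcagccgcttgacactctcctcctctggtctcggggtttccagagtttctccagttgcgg
Capitals mark a FoxO site (GTAAACA), 2 CCAAT boxes and a carbohydrate response element, through which glucose raises Txnip. That element was searched as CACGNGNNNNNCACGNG and matched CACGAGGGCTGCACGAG 85 bases before the start. It was in 16 of all windows (0.0487%), the FoxO site in 3.65% and the CCAAT box in 37.4%. Neither glucocorticoid motif was found in this window.

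Txnip also varied widely between cells. FPKM ranged from 0 with a median of 2.22 to 613 in untreated cells, from 0 with a median of 2.13 to 381 at day 2, and from 0.0384 with a median of 1.19 to 202 at day 4. The ranges overlapped, and the upper end was lowest at day 4. At 20 FPKM stood 25 of 54 untreated, 20 of 54 day 2 and 11 of 36 day 4 cells, or 46.3%, 37.04% and 30.6%.
The mean log2 level was 2.58 ± 2.49 at day 4 and 3.63 ± 3.15 in untreated cells (SD over 36 and 54 cells). The difference was -1.05, with -0.97, -1.10 and -1.07 in the plates, the narrowest plate range of the 7 genes. At day 2 it was -0.61 against untreated cells, with -0.80, -1.05 and 0.02. Unlike Tsc22d3, Txnip thus differed at day 2 in plates 1 and 2 and by less between day 4 and day 2, at -0.43 with -0.17, -0.05 and -1.09. Whether the 2 genes differ in timing was not tested.
Without the 34 cells with markers of another type the day 4 difference of Txnip from untreated cells was -0.46, with -0.13, -1.23 and 0.02, and the call ended. It was -0.83 without the Müller marker cells and -0.91 without the rod marker cells, each under 1 in size. Txnip was high in 1 of 4 Müller marker cells of day 4 and 6 of 8 such untreated cells. Exons of Txnip overlap those of Gm15441, and 44.3% of its values above 0 were not whole reads, so its level is uncertain where reads were shared. For Tsc22d3, whose exons overlap no other gene, 25.2% were not whole.

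Dusp1 encodes a phosphatase that switches off the stress kinases p38 and JNK, and it was the gene of the list with the most positive day 4 difference. The gene (ENSMUSG00000024190) lies on the minus strand at chr17:26505590-26562128. Its promoter is shown for that contrast with Tsc22d3 and Txnip.
Dusp1, chr17:26508423-26508722, minus strand: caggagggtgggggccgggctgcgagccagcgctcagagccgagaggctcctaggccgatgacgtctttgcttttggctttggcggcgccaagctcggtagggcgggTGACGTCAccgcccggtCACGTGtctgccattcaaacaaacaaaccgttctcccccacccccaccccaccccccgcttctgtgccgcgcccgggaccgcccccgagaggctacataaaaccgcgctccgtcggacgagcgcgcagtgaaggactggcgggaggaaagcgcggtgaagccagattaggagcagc
Capitals mark a cAMP response element (TGACGTCA), in 1.79% of all windows, 143 bases before the start, and an E-box (CACGTG), in 7.15%. Again neither glucocorticoid motif was found.

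Dusp1 was above 0 in every cell and was the most strongly expressed of the 9 genes per length. FPKM ranged from 1.67 with a median of 66.2 to 7875 in untreated cells, from 4.40 with a median of 267 to 6129 at day 2, and from 3.85 with a median of 530 to 1682 at day 4. The median was thus highest at day 4 while the upper end was lowest there. At 20 FPKM stood 31 of 54 untreated, 41 of 54 day 2 and 29 of 36 day 4 cells, or 57.4%, 75.9% and 80.6%. Among these high cells the median FPKM was 1312, 497 and 739.
The mean log2 level was 7.95 ± 2.76 at day 4 against 7.06 ± 3.71 in untreated cells (SD over 36 and 54 cells), which gave a difference of 0.89 with 1.35, 1.18 and 0.15 in the plates. The mean FPKM ran the other way, at 639 at day 4 and 1082 in untreated cells, a scale on which the highest cells weigh most. After median-ratio scaling the log2 difference was 0.08, with 0.34, 0.34 and -0.44. With detected genes as a covariate it was -0.86, with 0.21, -3.13 and -1.01. Without the 34 cells with markers of another type it was 1.95, with 1.79, 2.75 and 1.41, and passed the size rule upward. At day 2 the difference from untreated cells was 0.29, with -0.51, 0.91 and 0.48. Exons of Dusp1 overlap those of Ergic1.

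**Figure D3:**
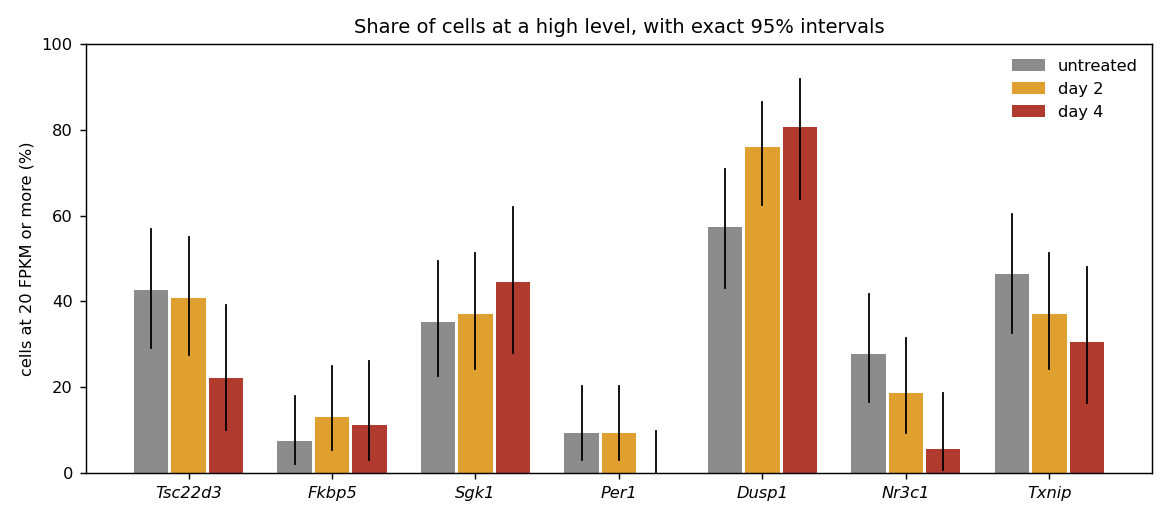
Share of cells at 20 FPKM or more for the 7 measured genes by time point, with exact 95% intervals for counting error as lines. Tsc22d3, Txnip, Nr3c1 and Per1 have their lowest share at day 4, and Dusp1 its highest at 80.6%.

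Nr3c1, the gene of the glucocorticoid receptor itself (ENSMUSG00000024431), is on chromosome 18. Its FPKM ranged from 0 with a median of 0.348 to 360 in untreated cells, from 0 with a median of 0.557 to 343 at day 2, and from 0 with a median of 0.218 to 25.6 at day 4. No cell of day 4 reached the upper range of the other times. At 20 FPKM stood 15 of 54 untreated, 10 of 54 day 2 and 2 of 36 day 4 cells, or 27.8% (exact 95% interval 16.5% to 41.6%), 18.5% (9.25% to 31.4%) and 5.56% (0.680% to 18.7%). Both high cells of day 4 were on plate 3.
The day 4 difference of Nr3c1 was -0.86, with -0.70, -2.09 and 0.23 in the plates. Its mean log2 level was 1.18 ± 1.58 at day 4 and 2.03 ± 2.73 in untreated cells (SD over 36 and 54 cells). The plates did not share 1 sign, and Nr3c1 did not pass the size rule. It passed in 4 of 15 alternatives: at -1.22 after median-ratio scaling, at -1.36 with detected genes as a covariate, at -2.69 on log2 of mean FPKM and at -1.40 without plate 3. At day 2 it was -0.34, with 0.27, -0.95 and -0.34.

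Per1, a repressor of the circadian clock with an E-box in its promoter window (ENSMUSG00000020893, chr11:69095217-69109960), was rare. It reached 20 FPKM in 5 of 54 untreated, 5 of 54 day 2 and 0 of 36 day 4 cells, the last of which allows a share of up to 8.33%. FPKM ranged from 0 with a median of 0.0596 to 181 in untreated cells, from 0 with a median of 0.0914 to 56.4 at day 2 and from 0 with a median of 0.0704 to 3.74 at day 4. The medians were all near 0, so the difference came from a few cells. Its mean log2 level was 0.26 ± 0.51 at day 4 against 0.86 ± 1.85 in untreated cells (SD over 36 and 54 cells), which gave a difference of -0.59 with -0.78, -0.36 and -0.63. Against day 2 it was -0.58, with -0.53, -0.38 and -0.82. Without the 34 cells with markers of another type the day 4 difference from untreated cells was -0.62, but plate 2 stood at 0.12.

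Sgk1, a kinase that regulates ion transport and survival and a classic early glucocorticoid target, was common but went with the plate. The gene (ENSMUSG00000019970) is on the plus strand at chr10:21882184-21999903. One of its 6 start site windows held the only full glucocorticoid response element among the 16 windows, and it was chosen for display after that match was seen.
Sgk1, chr10:21993640-21993939, plus strand: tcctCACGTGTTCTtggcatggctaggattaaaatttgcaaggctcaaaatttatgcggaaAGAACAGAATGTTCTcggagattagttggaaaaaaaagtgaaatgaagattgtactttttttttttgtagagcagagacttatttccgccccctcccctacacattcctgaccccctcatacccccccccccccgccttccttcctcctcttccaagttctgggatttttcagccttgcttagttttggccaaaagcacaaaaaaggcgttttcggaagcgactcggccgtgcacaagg
Capitals mark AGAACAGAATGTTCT, which begins 189 bases before that start, and an E-box with an overlapping half-site at the 5′ end. At 20 FPKM stood 19 of 54 untreated, 20 of 54 day 2 and 16 of 36 day 4 cells, or 35.2%, 37.04% and 44.4%. FPKM ranged from 0.119 with a median of 1.48 to 576 in untreated cells, from 0.0313 with a median of 2.59 to 697 at day 2 and from 0.117 with a median of 1.73 to 971 at day 4. The groups overlapped over their whole range. The day 4 difference from untreated cells was 0.22, with 0.19, 2.19 and -1.72 in the plates, and -0.35 after median-ratio scaling. The plates of Sgk1 thus had no shared direction, at a plate spread wider than that of any other gene listed. FPKM is given per gene, so the start used in these cells is not known. Any link of the element to these values was not tested.

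Fkbp5 encodes a co-chaperone that binds the receptor complex and lowers its affinity for hormone, and it is among the most used readouts of receptor activity. It (ENSMUSG00000024222, chr17:28399094-28517527) reached 20 FPKM in 4 of 54 untreated, 7 of 54 day 2 and 4 of 36 day 4 cells, or 7.41%, 12.96% and 11.1%. The highest FPKM was 82.5, 67.4 and 76.5, and the medians were 0.0432, 0.0457 and 0.0547. The 3 times were alike in these values. The day 4 difference was 0.47, with -0.00, 0.18 and 1.22, about the median of all measured genes.

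Ddit4, which inhibits growth signalling through mTOR, and Klf9, a transcription factor, are strong glucocorticoid targets in many tissues. Here Ddit4 (ENSMUSG00000020108, chr10:59949669-59951834) was above 0 in 7 cells with a highest value of 10.7 FPKM at day 4. Klf9 (ENSMUSG00000033863, chr19:23141226-23168134) was above 0 in 3 cells, with 3 reads in all. Neither reached 20 FPKM in any cell, which allows a share of up to 5.56% of 54 cells and 8.33% of 36.

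At day 2 against untreated cells the 7 differences had a median of -0.02, against 0.21 over all measured genes, and 0 of 7 passed the size rule in either direction. Of all measured genes 3.89% passed it upward and 0.0576% downward. At day 4 against day 2 the median was -0.43, against 0.25 over all. It too includes Tsc22d3, on whose day 4 level the list was chosen. Tsc22d3 passed downward, 1 of 7, and 0 passed upward, with 0.864% of all measured genes downward and 9.57% upward. Day 4 cells enter both day 4 comparisons and untreated cells 2 of the 3, so these values are not independent of each other.

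The genes went high together in some cells and not in others. The median number of the 7 at 20 FPKM was 3 per untreated cell, 3 at day 2 and 2 at day 4. Tsc22d3 and Txnip were both high in 16, 11 and 4 cells, and Tsc22d3 and Dusp1 in 19, 20 and 7. In 15 of 54, 15 of 54 and 14 of 36 cells no gene of the list other than Dusp1 was high. Across all cells Spearman's rho of Tsc22d3 was 0.37 with Dusp1, 0.28 with Txnip, 0.22 with Sgk1, 0.20 with Per1, 0.07 with Nr3c1 and 0.04 with Fkbp5. These are descriptions over cells that share plates. Across all cells rho with the number of detected genes was 0.22 for Tsc22d3, 0.46 for Txnip and 0.51 for Dusp1. For Tsc22d3 it was 0.51 over untreated cells, 0.20 over day 2 cells and 0.21 over day 4 cells. The part of the number of detected genes in the values of rho here and below was not tested. Dusp1 and Txnip had the highest value of the member pairs, with a rho of 0.53 over all cells, 0.58 over untreated cells, 0.61 over day 2 cells and 0.21 over day 4 cells.

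The genes whose level was most like that of Tsc22d3 over all cells were Zfp36, a destabiliser of cytokine mRNA, with a rho of 0.53, Ssh2, a cofilin phosphatase, with 0.53, Clk1, a splicing kinase, with 0.51, and the immediate-early genes Junb with 0.49 and Btg2 with 0.47. For Zfp36, Junb and Btg2 the value at day 4 was near 0, and for Ssh2 and Clk1 it was not. For Zfp36 rho over untreated cells was 0.60, over day 2 cells 0.57 and over day 4 cells 0.12. For Junb it was 0.50, 0.56 and 0.05, and for Btg2 0.49, 0.55 and 0.03. For Ssh2 it was 0.45, 0.68 and 0.36, and for Clk1 0.55, 0.50 and 0.33.
Zfp36 is also on the list, counted below, of other genes known to be induced by glucocorticoids. It was not lower at day 4, at a mean log2 level of 7.77 against 6.97 in untreated cells. The difference was 0.81, with 1.59, 0.94 and -0.12 in the plates. Immediate-early genes answer stress, cell sorting included, within minutes. The 18 such genes, all measured, had a median difference of 0.40 at day 4. Of them 1 passed the size rule upward and 0 downward, beside 18.9% and 0.346% of all measured genes. The 1 was Fos, at 1.1597 with 1.81, 1.54 and 0.12.
Over the 9 means of plate by time point, Pearson's r with Tsc22d3 was highest for Psap, a lysosomal protein gene, at 0.94, then Zswim4 at 0.90, Bscl2 at 0.88, Ptpn18 at 0.88 and Thap3 at 0.87. None of these 5 passed the size rule at day 4, and 9 points picked from 8679 genes show likeness only. The difference of Psap was -0.55, with -0.47, 0.18 and -1.37.

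**Figure D4:**
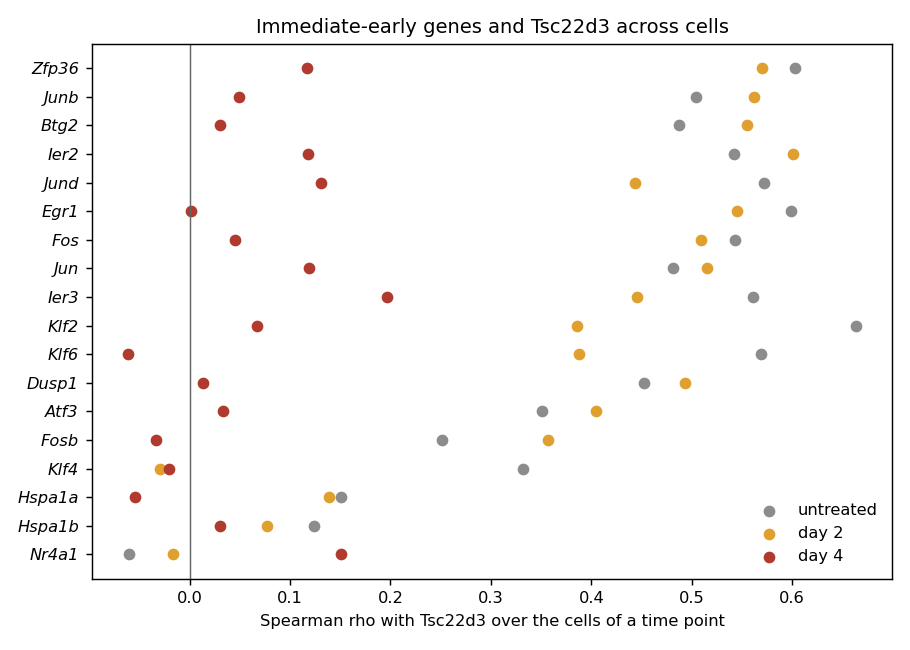
Spearman's rho between each of 18 immediate-early genes and Tsc22d3 within the 54 untreated, 54 day 2 and 36 day 4 cells. For Zfp36, Junb, Btg2 and most others the day 4 point lies near 0 and left of the other 2, with 0.12 for Zfp36 at day 4 against 0.60 in untreated cells; Nr4a1 is an exception.

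The rest of the pathway was counted in the same way. Of 18 genes of the receptor, its chaperones and cofactors, 13 were measured, and 4 passed the size rule upward at day 4 and 0 downward, beside 18.9% and 0.346% of all measured genes. The median of the 13 was 0.49, close to the 0.45 of all measured genes. The 4 were chaperones of the receptor complex. Hsp90ab1 had a mean log2 level of 8.48 at day 4 against 5.71 in untreated cells, and the difference was 2.77 with 3.35, 3.55 and 1.41 in the plates. Fkbp4, which helps carry the receptor to the nucleus, differed by 2.52, Ptges3 (p23) by 2.47 and Hsp90aa1 by 2.18. These 4 also passed against day 2, and at day 2 against untreated cells Ptges3 alone did, at 1.09.

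Among 30 other genes known to be induced by glucocorticoids in 1 tissue or another, 15 were measured, with a median of 0.26. Passing upward were Cdkn1a, a cell cycle inhibitor, at 2.20, Mt1, a metallothionein, at 2.03 and Cebpb, a transcription factor of macrophage activation, at 1.04. Passing downward was Glul, glutamine synthetase, at -1.45 with -1.05, -2.02 and -1.28. Glul is also on the Müller glia marker list, and it was at 20 FPKM in 23 of 36 day 4, 41 of 54 day 2 and 39 of 54 untreated cells. Of the 15, 6 were below 0, or 40%, against 18.1% of all measured genes. The 3 that passed upward are a share of the 15 close to the 18.9% of all measured genes. Glul, the 1 gene that passed downward, stands beside 0.346% of all measured genes, on a list chosen with earlier results known.

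Inflammatory genes that the receptor is known to repress were mostly higher at day 4. Of 13 such genes 10 were measured, and 6 passed upward and 0 downward, beside 18.9% and 0.346% of all measured genes. Below 0 was 1 of the 10, against 18.1% of all measured genes. The median was 2.08, against 0.45 over all. The largest were Ccl12 at 4.33, Tnf at 3.87, Ccl4 at 3.40 and Ccl2 at 2.65. At day 2 Ccl12 and Ccl4 passed upward, at 1.27 and 1.18, and Ccl5 downward, at -1.06. Of all measured genes 3.89% passed upward and 0.0576% downward at day 2.

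Lists around single members were small. Beside them, 18.9% of all measured genes passed upward and 0.346% downward at day 4, and 3.89% and 0.0576% at day 2. Of 4 Tsc22 family genes 2 were measured, and Tsc22d4 differed by 0.39 with 0.50, 0.82 and -0.14 at day 4. Of 16 clock genes 5 were measured, and Bhlhe41, a repressor of the clock, passed upward at 1.20. Per1, Per3, Nr1d2 and Tef were lower in all 3 plates by 0.29 to 0.59, under the rule's size. Of all measured genes, 3.95% were lower in all 3 plates. Per1 is in the 9-gene list too, and Per3, Nr1d2 and Tef were named after their values were seen. Of 7 genes of glucose sensing 6 were measured, and Txn1, thioredoxin, the partner of the Txnip protein, was higher by 2.98. Its mean log2 level was 5.78 at day 4 and 2.81 in untreated cells, and at day 2 it was already higher by 1.80. None of the measured FoxO targets (5 of 11), Dusp genes (4 of 9) or Klf genes (7 of 8) passed the size rule at day 4. Of 8 genes of the ATF4 stress response 2 were measured, and both, Atf4 at 1.09 and Ddit3 at 1.03, passed upward at day 2 and not at day 4.

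**Figure D5:**
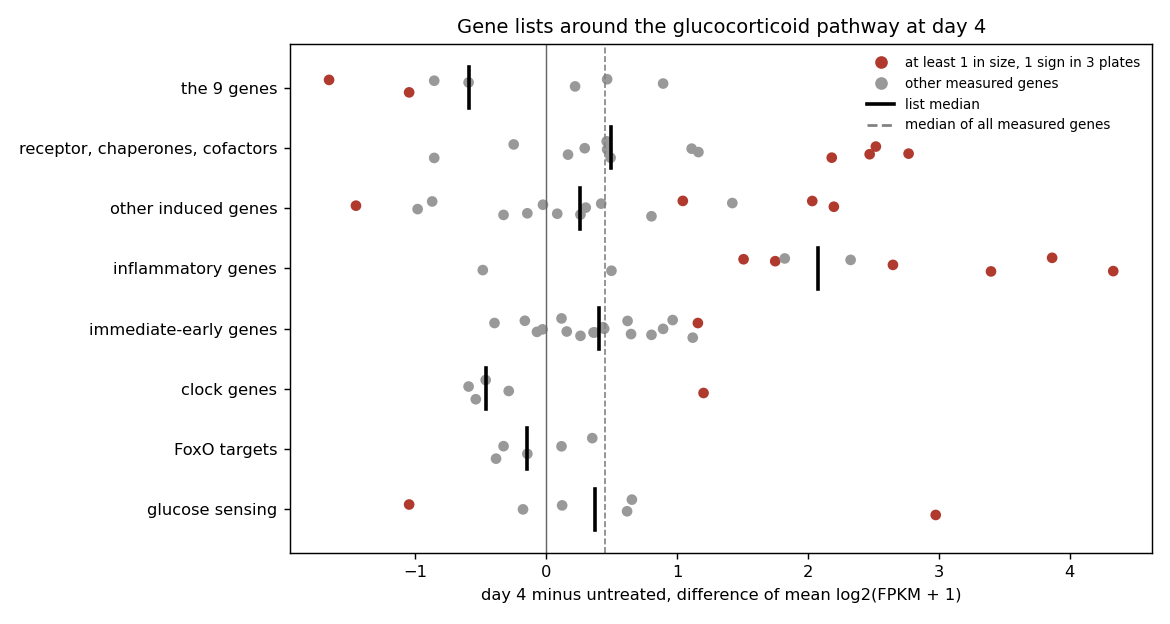
Day 4 minus untreated difference of mean log2(FPKM + 1) for each measured gene of 8 lists, in red where it passed the size rule. Black bars are list medians and the dashed line is the median of all measured genes, 0.45. The 9-gene list has its median at -0.59 and the inflammatory genes at 2.08. The median of the 9-gene list includes Tsc22d3, on whose day 4 level that list was chosen.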

How the data were processed

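Per the labels, RNA of single sorted cells was amplified and made into Nextera XT libraries; no molecular identifiers are mentioned. Per the submitters' processing notes, the tools were STAR 2.7.2b, featureCounts 1.6.1, cutadapt 1.16, Trimmomatic 0.36 and Trim Galore 0.4.4, and the builds GRCm38.p6 and mm10. The deposited values are FPKM, that is reads per kilobase of exon per 1e+06 assigned reads, for 55364 rows. Each cell's FPKM times length summed to 1e+09. Strand was not used. Where a symbol repeated (110 further rows), the highest-mean row was kept.

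Depth was read from the value of 1 read in each cell. Cells had 0.190 to 18.9 M reads, and 3 had under 1 M. A median of 59.4% of values above 0 were whole reads within 0.01 read (49.1% to 69.0%), so no count model was fitted. For 607 genes with over 1000 reads, of which over 95% were in 1 well, 49.7% of the other wells of that plate column held a read, against 2.78% of wells on other plates, so low values may include reads of neighbouring wells.

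log2(FPKM + 1), a pseudocount of 1, was averaged over cells, with its SD, and compared between time points, and again within plates. The labels name no animals, so no test was made. Shares have exact Clopper-Pearson 95% intervals, and a count of 0 was given the limit of 3 counts; both cover counting error only, since amplified reads are not independent molecules. The members and lists were chosen with earlier results of these data known. Named are all members, up to 4 genes past the size rule per list and comparison, and the 5 genes most like Tsc22d3 by each measure. Per3, Nr1d2, Tef and Tsc22d4 were named after their values were seen. Doublets were not called; cells with at least 3 markers of another type at 20 FPKM were left out as an alternative. The procedure was run on simulated data with planted shifts well above the size rule and no plate effects. That run does not show how the rule performs on cells like these. Python 3.11.15, pandas 2.3.3, numpy 2.4.6, scipy 1.17.1 and matplotlib 3.10.9 were used.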

Additional observations from a re-analysis of the deposited data

How the results depend on the processing

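The day 4 difference of Tsc22d3 from untreated cells was below 0 in 15 of 15 alternatives and passed the size rule in 14, the exception being the set without the 34 cells with markers of another type, at -1.04. With detected genes as a covariate it was -2.84. Of the 15, equal weight per plate equals the main value by design, so it adds no check. The 3 alternatives that drop cells with markers of 1 named type were chosen after seeing the data.

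The median of the 7 genes moved more. At day 4 against untreated cells it was -0.29 with a pseudocount of 10, -1.54 on log2 of mean FPKM, 0.015 as a median over cells, -1.36 with the covariate and -0.0015 with no filter on low values. At day 4 against day 2 it was -0.86 on log2 of mean FPKM, -0.031 without the 34 cells, -0.0013 with no filter, -0.11 without plate 3, -0.29 without plate 1 and -0.63 without plate 2, against -0.43 with all plates. At day 2 against untreated cells it was 0.052 with a pseudocount of 0.1, -0.36 on log2 of mean FPKM, 0.21 as a median over cells, -0.11 after median-ratio scaling, -0.58 with the covariate, 0.12 without the 34 cells, 0.075 without border macrophage cells, 0.030 without Müller marker cells and -0.19 without plate 1, the lowest of the 3 sets that leave out a plate.

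Counts of members past the size rule moved as follows. Downward at day 4 against untreated cells there was 1 with a pseudocount of 10, as a median over cells, and without Müller or rod marker cells (Tsc22d3 each time), 4 on log2 of mean FPKM (also Txnip, Nr3c1 and Per1), 3 after median-ratio scaling, with the covariate and without plate 3 (with Txnip and Nr3c1 each time), 3 at a size of 0.5 (with Txnip and Per1), and 0 without the 34 cells. Upward there was 1, Dusp1, without the 34 cells, without border macrophage or rod marker cells, and at a size of 0.5, and 2 without plate 3 (Sgk1 and Dusp1). Against day 2, downward, there were 0 with a pseudocount of 10 and without the 34 cells, and 2 on log2 of mean FPKM, with the covariate, without plate 3 and at a size of 0.5, Tsc22d3 being 1 of the 2 each time; upward there was 1, Dusp1, as a median over cells, without the 34 cells, without border macrophage cells and without plate 3. At day 2 downward there was 1, Txnip, with the covariate and without border macrophage cells. The cause of these moves was not tested.

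Over all measured genes, 30 passed downward and 1636 upward at day 4 against untreated cells. Downward the number was 71 with a pseudocount of 0.1, 13 with 10, 528 on log2 of mean FPKM, 266 with the covariate, 140 after median-ratio scaling, and 58, 97 and 54 without plates 1, 2 and 3. Upward it was 2786 with a pseudocount of 0.1, 452 with 10 and 512 with the covariate. At day 2 against untreated cells the alternatives gave 51 to 1333 upward (338 in the report) and 0 to 484 downward (5), and at day 4 against day 2 they gave 224 to 1887 upward (831) and 14 to 529 downward (75). No paired analysis was possible because the labels number no replicates and no test was made. The plates, which hold cells of all time points, were used as a split. Equal weight per plate could change no value, because every plate held the same number of cells of a time point. At 100 FPKM in place of 20, Tsc22d3 was high in 8.33% of day 4 cells and 37.04% of untreated cells, and at 5 FPKM in 33.3% and 48.1%. Levels under 1 FPKM are limited by depth and by reads from neighbouring wells.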
